A study of Mus musculus with 23 samples.

Results

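The immunoglobulin V genes encode most of the variable domain of antibody chains, and 160 of them were described here in ribosome footprints from mouse small intestine. Members were selected on their reads, as the genes whose GENCODE vM21 symbol starts with Ighv, Igkv or Iglv and whose estimated reads summed to at least 60 over the 6 mouse libraries. They were 81 heavy chain, 77 kappa chain and 2 lambda chain genes, out of 217 V genes and 22314 genes counted. The rule used the reads summed over both genotypes, so the levels of the members are given as a description. It did not compare the genotypes, but a gene read in 1 genotype alone could pass it. Rptorflfl libraries held more reads on average and so weighed more in the sum. Of the members, 1 had at most 3 reads in every WT library and 1 in every Rptorflfl library. That count is narrow, because members with more reads than this also reached 60 only through 1 genotype. Ighv7-1 had 4.98, 2.19 and 20.9 reads in WT, and Igkv4-74 had 0, 11.8 and 13.6. Igkv4-86 had 8.71, 3.83 and 5.62 reads in Rptorflfl, and Ighv2-5 had 0, 9.12 and 6.89. How many members did so was not counted.

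Ribo-seq sequences the short RNA fragments that ribosomes protect from nuclease. The study asked how loss of Rptor, which encodes Raptor of the mTORC1 kinase complex, alters ribosome occupancy in intestinal stem cells. The 3 WT mice carried Lgr5Cre.ERT2 and the RPL22.HA allele. The 3 Rptorflfl mice carried the same pair of alleles and floxed Rptor. All were C57BL/6 mice of 8 to 12 weeks, and the study's methods describe a single tamoxifen injection 24 h before the tissue was taken, although the labels call the mice untreated. Cre was driven from Lgr5, so the tag and the deletion were placed in Lgr5-positive cells, and HA-tagged ribosomes were pulled from lysate of the whole frozen small intestine. Levels are given as CPM (estimated reads divided by the TMM-scaled library size, on the usual counts-per-million scale), and n = 3 mice per genotype throughout.

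An antibody gene is assembled in a B cell by joining a V segment to further short segments, upstream of a constant gene. Each B cell and its descendants keep 1 productive heavy and usually 1 productive light chain, either kappa or lambda, so each B cell clone carries its own V genes. In the gut wall, plasma cells secrete IgA, a heavy chain of the Igha class paired with a light chain and joined by the J chain, and Pigr carries it across the epithelium. The V segments of a family share sequence.

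Footprints of about 28 bases can match several V genes, so the sequences that separate family members matter for the values below. Each of the 4 pairs shown joins genes of 1 family with unlike changes between the genotypes, so the choice followed the values. The first 180 aligned bases of the second coding exon are given, read 5′ to 3′ on the coding strand from GRCm38 (mm10), with capitals where the base differs from, or has no counterpart in, the gene paired with it. Ighv1-26 (chr12:114788497-114788676) and Ighv1-53 (chr12:115158528-115158707), both on the minus strand, held the most heavy chain reads in Rptorflfl and WT respectively, and their exons were 87.5% identical.
Ighv1-26: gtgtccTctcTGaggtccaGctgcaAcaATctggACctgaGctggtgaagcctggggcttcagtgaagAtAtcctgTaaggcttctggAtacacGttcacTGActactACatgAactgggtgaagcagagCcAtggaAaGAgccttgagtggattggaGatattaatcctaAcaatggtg
Ighv1-53: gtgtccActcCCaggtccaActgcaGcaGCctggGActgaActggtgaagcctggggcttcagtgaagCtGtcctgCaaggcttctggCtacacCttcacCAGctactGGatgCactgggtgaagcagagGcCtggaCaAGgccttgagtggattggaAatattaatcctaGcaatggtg
Igkv8-21 (chr6:70315028-70315207) and Igkv8-27 (chr6:70171940-70172119), on the minus strand of the kappa locus, moved in opposite directions and were also 87.5% identical.
Igkv8-21: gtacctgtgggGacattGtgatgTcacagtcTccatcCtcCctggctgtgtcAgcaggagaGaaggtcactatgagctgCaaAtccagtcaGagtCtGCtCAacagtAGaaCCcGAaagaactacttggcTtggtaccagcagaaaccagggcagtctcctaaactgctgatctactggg
Igkv8-27: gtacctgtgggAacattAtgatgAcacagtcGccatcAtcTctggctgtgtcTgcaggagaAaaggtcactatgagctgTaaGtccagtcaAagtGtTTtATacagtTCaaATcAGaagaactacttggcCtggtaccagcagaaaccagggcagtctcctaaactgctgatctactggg
Igkv4-74 (chr6:69184949-69185128) and Igkv4-86 (chr6:68910525-68910704), again on the minus strand, were read mostly in Rptorflfl and in WT respectively, with 85.8% identity.
Igkv4-74: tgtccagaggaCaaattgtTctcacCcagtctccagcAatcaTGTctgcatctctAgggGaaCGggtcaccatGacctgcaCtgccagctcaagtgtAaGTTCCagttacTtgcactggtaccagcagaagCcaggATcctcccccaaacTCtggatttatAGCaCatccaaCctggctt
Igkv4-86: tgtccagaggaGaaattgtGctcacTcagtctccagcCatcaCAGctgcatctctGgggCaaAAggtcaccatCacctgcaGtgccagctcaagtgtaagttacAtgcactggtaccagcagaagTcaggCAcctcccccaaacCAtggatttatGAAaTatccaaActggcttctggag
Ighv7-1 (chr12:113896545-113896724) had the largest rise of the named genes. Ighv7-3 (chr12:114153315-114153494), which was also paired after the values were seen, is the other member of its family and did not pass the test. Both lie on the minus strand, with 89.0% identity.
Ighv7-1: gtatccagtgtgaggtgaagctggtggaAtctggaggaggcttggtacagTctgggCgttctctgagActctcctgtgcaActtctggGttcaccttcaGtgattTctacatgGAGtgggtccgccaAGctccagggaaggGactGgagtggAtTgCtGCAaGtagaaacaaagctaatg
Ighv7-3: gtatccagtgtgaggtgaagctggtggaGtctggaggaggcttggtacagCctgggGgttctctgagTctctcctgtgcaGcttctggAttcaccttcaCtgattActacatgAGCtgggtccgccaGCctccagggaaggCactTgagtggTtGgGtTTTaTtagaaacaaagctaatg

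Over the members, the share of 28-base words of a gene found in no other counted gene ranged from 1.08% to 100%, with a median of 51.9%. These words were taken from the annotated transcripts, which are shorter than the V sequences quantified. Salmon divides reads that match several sequences, and 3.71% of the estimates above 0 for single V genes were whole numbers within 0.01 read. For family sums that share was 18.7%, so reads were divided between families as well. Values of single genes with close relatives are therefore uncertain, and the family and locus sums are given beside them.

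The libraries held between 772077 and 8238388 estimated reads, and V genes took 8493 to 68254 of them. As label checks, Rptor stood at 41.7, 39.7 and 44.7 CPM in WT and 32.6, 34.4 and 36.9 CPM in Rptorflfl, with log2 -0.28 ± 0.12 (SE), adjusted p = 0.15, below the WT range in all 3 Rptorflfl mice without passing the test. Lgr5 stood at 11.4, 7.76 and 8.77 CPM in WT and 45.8, 8.53 and 6.32 CPM in Rptorflfl, so Rptorflfl replicate 1 stood apart from the other 5 libraries, and counts of V genes are given without it below. Organoid libraries, which grow from epithelium, are given beside the mouse libraries and were counted on another set of sequences. They do not measure untagged ribosomes carried over in the mouse pull-down. Organoid RNA-seq had between 0 and 4 V reads in a library, and SCe organoid Ribo-seq had 3, 0 and 1. Rptorflfl organoid Ribo-seq had 24, 22 and 10 V reads of 5992941, 6379236 and 8257457 reads. The last group's V reads came beside 27, 12 and 11 Igha reads.

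V gene usage, the share of V reads that each gene takes, was close to the same in the 3 libraries of a genotype and differed between genotypes. The usage shared by a pair of libraries, taken as the sum over genes of the smaller of the 2 shares, was 87.8 to 89.9% within WT and 90.8 to 94.3% within Rptorflfl. Between genotypes it was 52.7 to 56.6% over the 9 pairs. For 11320 other genes whose reads fell in the same range as the members', shared usage was 93.01 to 94.9% within WT, 93.5 to 96.2% within Rptorflfl and 88.8 to 90.9% between genotypes. The separation of the genotypes was therefore larger in V genes than in other genes in every pair between genotypes.

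**Figure D1:**
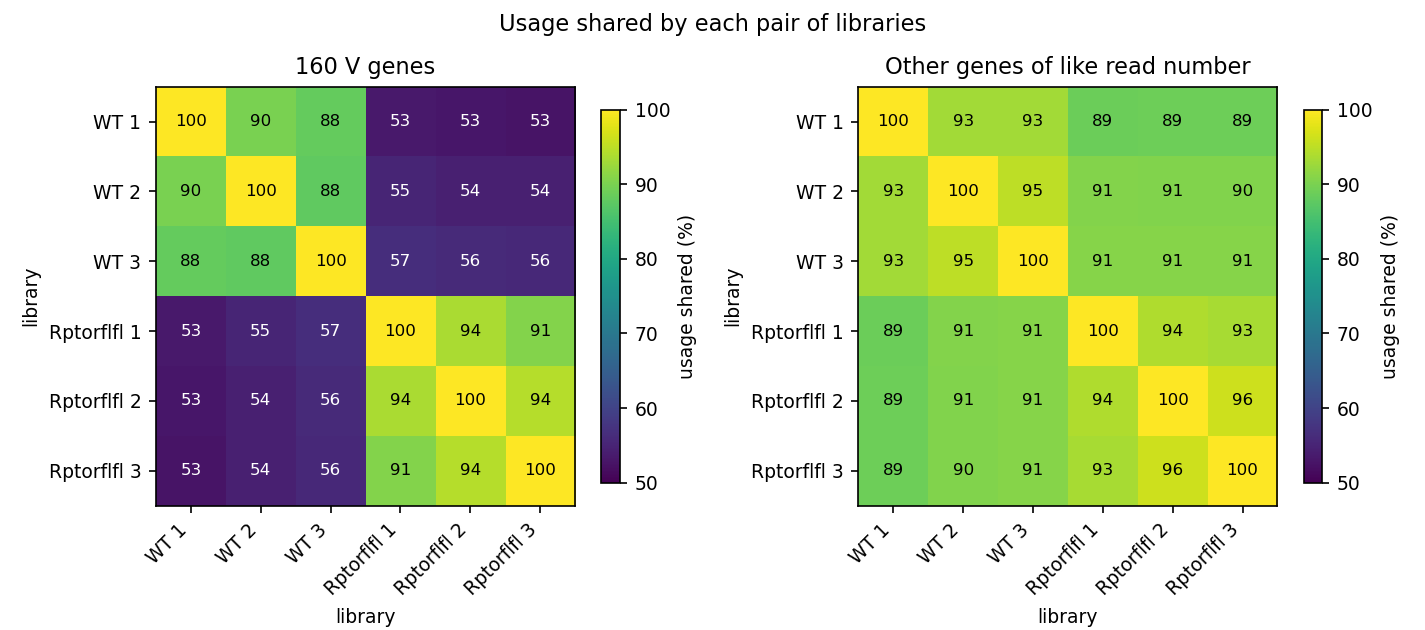
Each cell gives the percentage of usage shared by 2 of the 6 mouse libraries, on the left over the 160 V genes and on the right over 11320 other genes of the same range of reads. V usage shared between genotypes lies at 52.7 to 56.6%, against 87.8 to 89.9% within WT and 90.8 to 94.3% within Rptorflfl.

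Libraries of a genotype differed by more than counting error alone. Pearson's chi-square of V reads per degree of freedom, which is near 1 where libraries differ by counting error alone, was 3.93 to 12.7 within WT and 3.56 to 8.03 within Rptorflfl, and 58.7 to 206 between genotypes. In the other genes it was 1.44 to 2.003, 1.67 to 4.04 and 3.75 to 11.6. Over the 160 V genes, the Pearson correlation of log2 usage was 0.885 to 0.917 within WT, 0.932 to 0.965 within Rptorflfl and 0.4798 to 0.5196 between genotypes, as a description across genes that share reads and library depth. The labels number the libraries as separate mice and the study counts them as biological replicates. Whether libraries of a genotype shared material was not tested, and every test below measures the spread between these 3 libraries and no other.

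Footprints on V genes as a whole were lower in Rptorflfl. Of all reads of a library, members took 1.09997, 1.12 and 1.09% in WT and 0.8499, 0.857 and 0.828% in Rptorflfl, and the groups did not overlap. Heavy chain V genes stood at 5863, 5806 and 5569 CPM in WT and 4184, 4415 and 4479 CPM in Rptorflfl, and every WT value was above every Rptorflfl value. Kappa V genes stood at 4513, 4828 and 4709 CPM in WT and 4379, 4405 and 4080.5 CPM in Rptorflfl, again without overlap but with a smaller distance between groups. Lambda V genes stood at 359, 364 and 328 CPM in WT and 75.8, 90.1 and 62.4 CPM in Rptorflfl, with no overlap. Footprints depend on the number of cells, the RNA per cell and the ribosomes on each RNA, which such bulk libraries cannot tell apart. The part of untagged ribosomes carried over in the pull-down was not tested.

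Kappa genes took a larger share of V reads in Rptorflfl, and heavy and lambda genes a smaller one. Of V reads, heavy chain genes took 54.6, 52.8 and 52.5% in WT and 48.4, 49.5 and 51.95% in Rptorflfl, which gave means of 53.3% ± 1.14 (SD) and 49.98% ± 1.80. Kappa genes took 42.04, 43.9 and 44.4% in WT and 50.7, 49.4 and 47.3% in Rptorflfl, with means of 43.4% ± 1.24 and 49.2% ± 1.70. Lambda genes took 3.34, 3.31 and 3.09% in WT and 0.877, 1.01 and 0.724% in Rptorflfl, with means of 3.25% ± 0.138 and 0.871% ± 0.144. None of the 3 shares overlapped between the genotypes. Kappa reads per lambda read were 12.6, 13.3 and 14.4 in WT and 57.8, 48.9 and 65.4 in Rptorflfl. With 3 mice against 3, an exact permutation test cannot go below p = 0.10, so no p is given for shares.

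**Figure D2:**
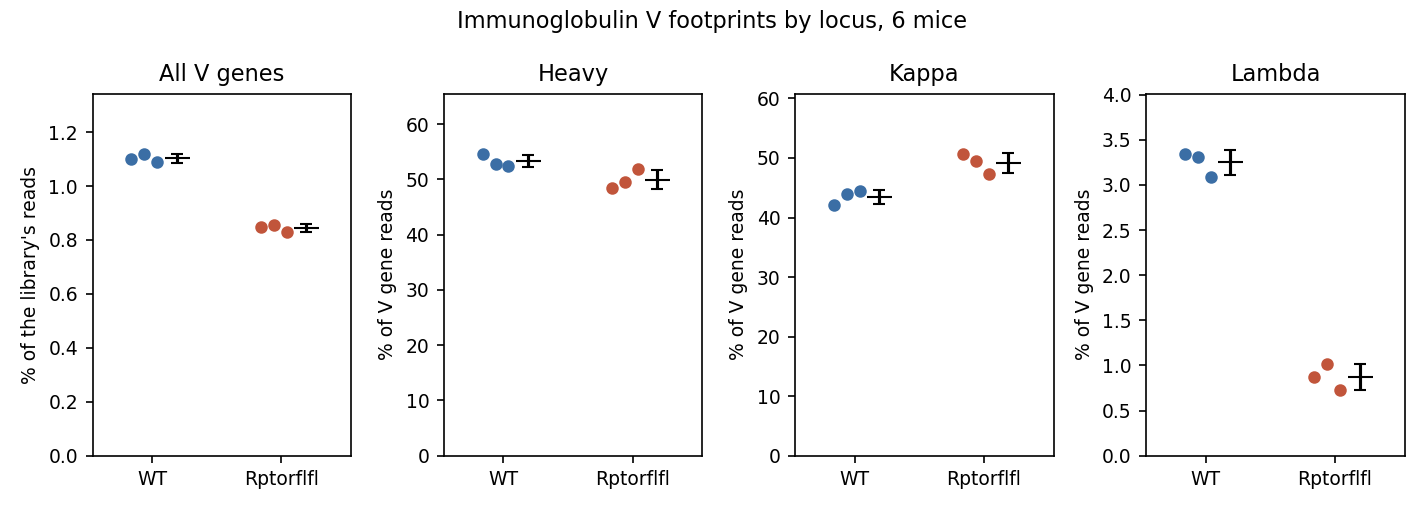
Points are the 6 mice, with the mean and SD of each genotype beside them: V genes as a percentage of the library's reads, then heavy, kappa and lambda genes as percentages of V reads. Lambda lies between 3.09 and 3.34% in WT and between 0.724 and 1.01% in Rptorflfl.

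Of 12 immunoglobulin constant genes 9 were tested, of which 0 rose and 4 fell, namely Igha, Ighg1, Iglc1 and Iglc2, and DESeq2 called 4. Igha, the constant region of IgA, stood at 11636, 11078 and 11702 CPM in WT and 9103, 9889 and 9506 CPM in Rptorflfl (log2 -0.27 ± 0.06 (SE), adjusted p = 0.0067 in edgeR's quasi-likelihood test over 11515 genes). Igkc, the kappa constant gene, stood at 3485, 4130.1 and 4703 CPM in WT and 5295, 5102 and 4518 CPM in Rptorflfl with overlapping groups (log2 0.27 ± 0.09 (SE), adjusted p = 0.068). Kappa V reads per Igkc read were 1.29, 1.17 and 1.001 in WT and 0.827, 0.863 and 0.903 in Rptorflfl, so kappa V genes and their constant gene did not keep 1 ratio. Iglc1, a lambda constant gene, stood at 264, 304 and 280.2 CPM in WT and 25.4, 31.4 and 28.04 CPM in Rptorflfl and fell (log2 -3.33 ± 0.10 (SE), adjusted p = 1.8e-11). The other lambda constant genes changed less, Iglc2 (log2 -0.81 ± 0.19 (SE), adjusted p = 0.0089) and Iglc3 (log2 -0.34 ± 0.43 (SE), adjusted p = 0.68). Lambda V reads per Iglc1 read were 1.36, 1.198 and 1.17 in WT and 2.99, 2.87 and 2.23 in Rptorflfl. A ratio to Iglc1 alone overstates the change against the lambda constant genes together. Heavy V reads per Igha read, at 0.504, 0.524 and 0.476 in WT and 0.4596, 0.446 and 0.471 in Rptorflfl, were lower in each Rptorflfl library than in each WT library. Ighm, the IgM constant gene, was at 26.5, 31.5 and 35.98 CPM in WT and 28.99, 29.2 and 28.5 CPM in Rptorflfl, far below Igha in each mouse.

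Of 12 plasma cell genes, 11 were tested, and in edgeR 1 rose and 2 fell, while DESeq2 called 2 in all. Jchain, which joins IgA monomers, stood at 1066, 1056 and 997 CPM in WT and 776, 782 and 727 CPM in Rptorflfl (log2 -0.45 ± 0.07 (SE), adjusted p = 3.7e-04), and Mzb1, a plasma cell chaperone of the endoplasmic reticulum, at 17.7, 23.7 and 20.1 CPM in WT and 11.9, 14.3 and 13.3 CPM in Rptorflfl (log2 -0.66 ± 0.17 (SE), adjusted p = 0.018). Prdm1, a transcription factor of plasma cells that intestinal epithelium can also express, rose (log2 0.99 ± 0.20 (SE), adjusted p = 0.0032). The summed plasma cell list lay between 1523 and 1585 CPM in WT and between 1192 and 1252 CPM in Rptorflfl. Of 12 mature B cell genes 6 were tested and 0 passed in edgeR, with 1 at an unadjusted p under 0.05 and 0 called by DESeq2, and their sum was 43.4 to 57.7 CPM in WT and 42.0 to 48.3 CPM in Rptorflfl. The 9 T cell genes, of which 7 were tested and 0 passed in edgeR (0 at an unadjusted p under 0.05, 0 by DESeq2), summed to 59.4 to 71.1 and 59.3 to 71.0 CPM, and T cell receptor V genes held 14.9 to 114 reads a library. Among 8 genes of IgA transport and recruitment 6 were tested and 2 rose in edgeR, Pigr at 3982, 4093 and 4363 CPM in WT and 5315, 5155 and 4759.6 CPM in Rptorflfl (log2 0.29 ± 0.07 (SE), adjusted p = 0.0082) and Tnfsf13b, which encodes the B cell survival factor BAFF (log2 1.096 ± 0.31 (SE), adjusted p = 0.028), and DESeq2 called 1 gene of the list. The part of these cell types in the V gene values was not tested.

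Stem cell and epithelial genes were in the same libraries. Of 8 intestinal stem cell genes, all tested, 2 fell in edgeR and 2 were called by DESeq2, Olfm4 (log2 -0.63 ± 0.08 (SE), adjusted p = 6.3e-05) and Ascl2 (log2 -1.69 ± 0.38 (SE), adjusted p = 0.0076), and their sum ranged from 609 to 640.4 CPM in WT and from 391 to 615 CPM in Rptorflfl. The highest Rptorflfl sum was that of replicate 1, which stood apart in Lgr5. It was also above the other Rptorflfl mice in Smoc2 (107 against 36.2 and 30.9 CPM) and Sox9 (69.2 against 22.2 and 28.8 CPM). Of 7 epithelial genes 3 rose and 1 fell in edgeR, against 3 called by DESeq2, and their sum ranged from 17059.8 to 17662 CPM in WT and from 17521 to 20321 CPM in Rptorflfl. The 160 V genes summed stood above the sum of these 8 stem cell genes in every mouse, in a pull-down of ribosomes tagged through Lgr5. The sets differ in size, so the comparison does not measure how pure the pull-down was.

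Of the 160 members, 154 passed the filter on low counts, and 47 were higher and 58 lower in Rptorflfl at an adjusted p under 0.05. Over all genes tested 13.4% were called in either direction, 7.47% higher and 5.97% lower, against 68.2% of the V genes tested. The median log2 change was -0.16 over the tested members and -0.02 over all tested genes. Calls with a change of at least 2-fold numbered 34 higher and 48 lower among V genes, while 2.83% of all genes tested were called at that size. Both sets of V gene calls include members, such as Ighv7-1 and Igkv4-86, that reached 60 reads only through 1 genotype. The groups did not overlap in CPM for 48 members with Rptorflfl above and 56 with WT above, and 31.1% of all tested genes did not overlap. Heavy chain genes had 21 higher and 29 lower of 77 tested, kappa genes 26 and 27 of 75, and both lambda genes were lower. Without Rptorflfl replicate 1 the counts were 49 higher and 59 lower, and without WT replicate 3, the deepest WT library, 37 and 48. Among the 82 tested members with at least 50% of their 28-base words to themselves, 25 were higher and 33 lower.

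**Figure D3:**
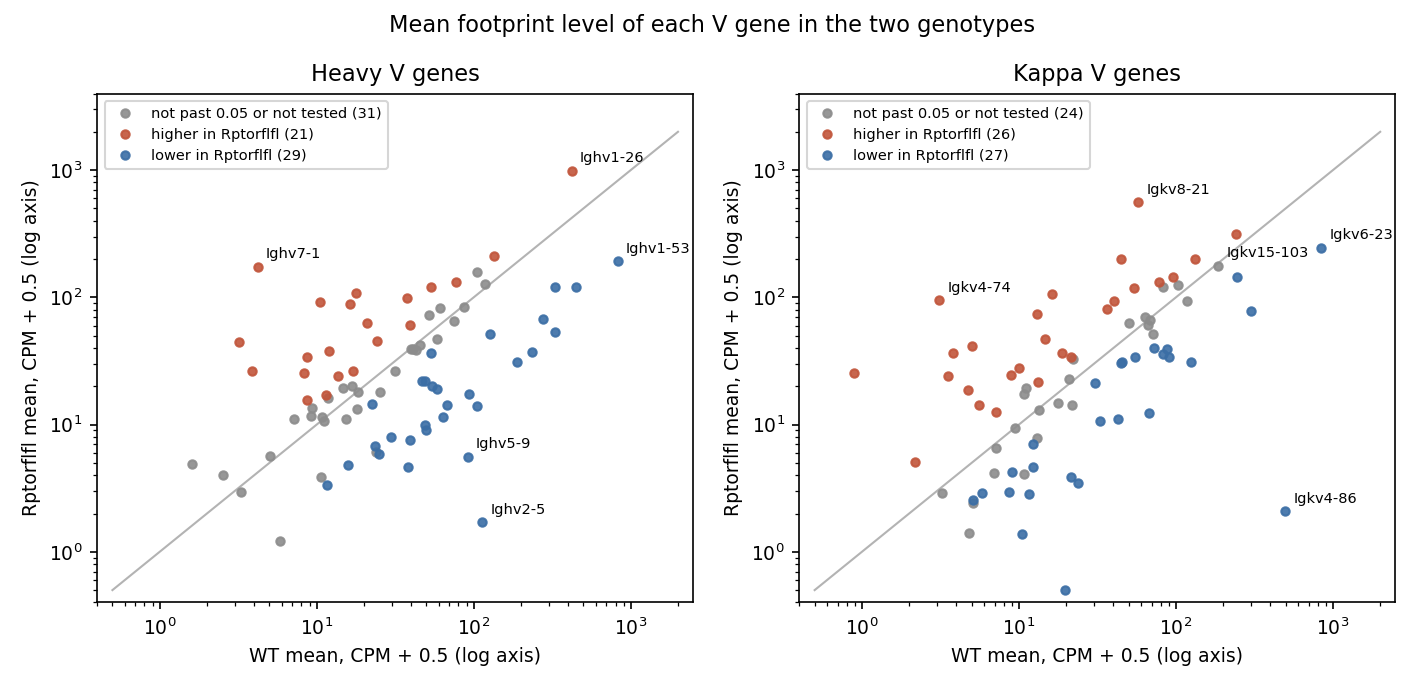
Each point is a heavy (left) or kappa (right) V gene, with its mean CPM + 0.5 in WT and in Rptorflfl on log axes, the line marking equal values. Genes called higher or lower lie on either side of the line, among them Ighv7-1 and Igkv4-74 above it and Ighv2-5 and Igkv4-86 below it.

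The 6 members that did not pass the filter were Ighv9-1, Ighv1-36, Ighv2-9, Ighv2-3, Igkv5-45 and Igkv3-1, with summed reads between 61.8 and 84.4. Just inside the threshold of the rule lay Igkv3-1 with 61.8 reads, Igkv5-45 with 64.0 and Igkv1-133 with 67.9. Just outside lay Igkv9-129 with 56.1 reads, Igkv14-130 with 55.9 and Igkv4-78 with 51.4, of which Igkv4-78 had 45.9 in WT replicate 3.

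Heavy chain V genes were led by different genes in the 2 genotypes. Ighv1-26, of the large Ighv1 family (chr12:114788372-114788805), had 413, 385 and 459 CPM in WT and 899, 1001 and 1067 CPM in Rptorflfl (log2 1.23 ± 0.09 (SE), adjusted p = 1.1e-07). It took 21.5, 22.7 and 23.8% of heavy V reads in Rptorflfl and was the most read heavy gene in all 3 of them. Ighv1-53 (chr12:115158403-115158835) led in all 3 WT mice, with 935, 894 and 646 CPM in WT and 185, 199 and 196 CPM in Rptorflfl (log2 -2.08 ± 0.12 (SE), adjusted p = 7.8e-09). The groups did not overlap for either gene, whose differing bases are printed above. Only 33.3% of the 28-base words of Ighv1-26 and 28.1% of those of Ighv1-53 were their own. Both estimates therefore lean on how reads were divided.

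Further named Ighv1 genes lay on either side. Ighv1-39 had 464, 447 and 424 CPM in WT and 83.4, 124 and 155 CPM in Rptorflfl (log2 -1.85 ± 0.15 (SE), adjusted p = 5.7e-07). Ighv1-55 had 342, 372 and 278 CPM in WT and 59.5, 47.8 and 50.1 CPM in Rptorflfl (log2 -2.65 ± 0.12 (SE), adjusted p = 1.0e-09), and Ighv1-82 had 270.5, 240.2 and 320.1 CPM in WT and 65.98, 62.4 and 74.3 CPM in Rptorflfl (log2 -2.03 ± 0.11 (SE), adjusted p = 7.4e-09). In each of these genes every WT mouse was above every Rptorflfl mouse. Ighv1-19 fell likewise, with 271, 213 and 222 CPM in WT and 38.97, 41.2 and 30.1 CPM in Rptorflfl (log2 -2.69 ± 0.13 (SE), adjusted p = 1.3e-09). Ighv1-5 went the other way, with 12.7, 7.83 and 9.61 CPM in WT and 98.1, 85.5 and 92.6 CPM in Rptorflfl (log2 3.28 ± 0.15 (SE), adjusted p = 1.0e-09). In all, 10 of the 43 tested Ighv1 genes were higher and 18 lower.

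Several heavy chain genes of smaller families were read almost wholly in 1 genotype. Ighv7-1 (chr12:113896408-113896946) had 6.297, 1.001 and 3.81 CPM in WT and 163, 176 and 182 CPM in Rptorflfl, a rise in all 3 Rptorflfl mice (log2 5.71 ± 0.20 (SE), adjusted p = 8.2e-11). Its relative Ighv7-3 had 24.98, 19.04 and 30.4 CPM in WT and 16.4, 16.3 and 20.3 CPM in Rptorflfl and did not pass the test (log2 -0.52 ± 0.18 (SE), adjusted p = 0.078). The 2 genes of this family thus had unlike values at 89.0% identity over the exon printed above. Ighv2-5 (chr12:113685482-113686045) had 125, 106 and 109 CPM in WT and 0, 2.78 and 0.8699 CPM in Rptorflfl, and in reads 98.9, 231 and 594 in WT and 0, 9.12 and 6.89 in Rptorflfl (log2 -6.58 ± 0.28 (SE), adjusted p = 6.8e-10). Ighv5-9 had 96.9, 92.95 and 83.2 CPM in WT and 5.16, 5.13 and 4.95 CPM in Rptorflfl (log2 -4.13 ± 0.15 (SE), adjusted p = 8.2e-11). Both genes had at least 83.2 CPM in every WT mouse and at most 5.16 CPM in every Rptorflfl mouse.

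Named genes of further heavy families moved in either direction or did not pass. Ighv4-1, the only counted gene of its family, had 338, 356 and 299 CPM in WT and 109, 128 and 123 CPM in Rptorflfl and all of its 28-base words to itself (log2 -1.45 ± 0.09 (SE), adjusted p = 3.8e-08). Ighv8-8 had 5.99, 30.8 and 14.9 CPM in WT and 101, 111 and 111 CPM in Rptorflfl (log2 2.53 ± 0.22 (SE), adjusted p = 9.3e-07), and Ighv14-3 had 55.99, 49.8 and 53.9 CPM in WT and 121, 122 and 119 CPM in Rptorflfl (log2 1.19 ± 0.09 (SE), adjusted p = 3.4e-07). Ighv3-6 had 134, 161 and 111 CPM in WT and 213, 219 and 206 CPM in Rptorflfl and also rose (log2 0.67 ± 0.11 (SE), adjusted p = 9.5e-04). Ighv5-17 had 112, 124 and 116 CPM in WT and 118, 141 and 121 CPM in Rptorflfl with overlapping groups (log2 0.09 ± 0.09 (SE), adjusted p = 0.59), although Ighv5-9 of the same family fell. Ighv9-3 had 55.5, 74.7 and 51.5 CPM in WT and 94.4, 80.7 and 69.6 CPM in Rptorflfl, overlapping as well (log2 0.42 ± 0.15 (SE), adjusted p = 0.071).

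The largest difference of the named genes was in a kappa gene. Igkv4-86 (chr6:68910411-68910973) had 442, 551 and 490.3 CPM in WT and 2.87, 1.16 and 0.7096 CPM in Rptorflfl, the smallest adjusted p of all members (log2 -8.49 ± 0.20 (SE), adjusted p = 8.9e-13). In reads these were 349.7, 1206 and 2684 in WT and 8.71, 3.83 and 5.62 in Rptorflfl. The gene was thus read at 442 to 551 CPM in WT and by at most 8.71 reads in a Rptorflfl library. Igkv4-74 of the same family had 0, 5.38 and 2.48 CPM in WT and 92.6, 97.7 and 93.3 CPM in Rptorflfl, nearly the reverse (log2 4.92 ± 0.23 (SE), adjusted p = 1.4e-09), with 0 reads in WT replicate 1. Only 29.2% of its 28-base words were its own, against 64.8% for Igkv4-86, so the estimate of Igkv4-74 leans more on how reads were divided.

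Igkv6-23 and Igkv8-21 took the lead among kappa genes in WT and in Rptorflfl respectively. Igkv6-23 (chr6:70260409-70260955) had 881, 809.9 and 839 CPM in WT and 259, 247 and 228 CPM in Rptorflfl (log2 -1.78 ± 0.08 (SE), adjusted p = 6.8e-10) and 16.8 to 19.5% of kappa V reads in WT. Igkv8-21 (chr6:70314895-70315472) had 64.7, 45.2 and 60.5 CPM in WT and 496, 577 and 601 CPM in Rptorflfl (log2 3.32 ± 0.12 (SE), adjusted p = 8.2e-11) and 11.3 to 14.7% of kappa V reads in Rptorflfl. Its relative Igkv8-27 moved oppositely, with 291, 335 and 273 CPM in WT and 75.98, 83.9 and 71.4 CPM in Rptorflfl (log2 -1.96 ± 0.10 (SE), adjusted p = 2.9e-09). No value of 1 genotype entered the range of the other in these 3 genes.

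Some of the most read kappa genes differed by less than 2-fold. Igkv15-103, the only counted gene of its family and unique in all its 28-base words, had 196, 192 and 169.6 CPM in WT and 189, 188 and 154 CPM in Rptorflfl (log2 -0.06 ± 0.10 (SE), adjusted p = 0.74). Igkv1-117 had 253, 256 and 221 CPM in WT and 159, 139 and 135 CPM in Rptorflfl and fell (log2 -0.75 ± 0.09 (SE), adjusted p = 5.1e-05). Igkv10-96 had 209, 290.3 and 228 CPM in WT and 312, 336 and 300.2 CPM in Rptorflfl and rose slightly (log2 0.37 ± 0.10 (SE), adjusted p = 0.028), a call that was lost without WT replicate 1, WT replicate 3 or Rptorflfl replicate 2 (adjusted p = 0.098, 0.17 and 0.13). Per kilobase of listed sequence, Ighv1-26, Igkv6-23 and Ighv1-53 had the highest mean levels over the 6 mice, at 1630.1, 1268 and 1178 CPM per kilobase. That order pools both genotypes, and Ighv1-26 was above Igkv6-23 and Ighv1-53 in Rptorflfl but below both in WT.

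**Figure D4:**
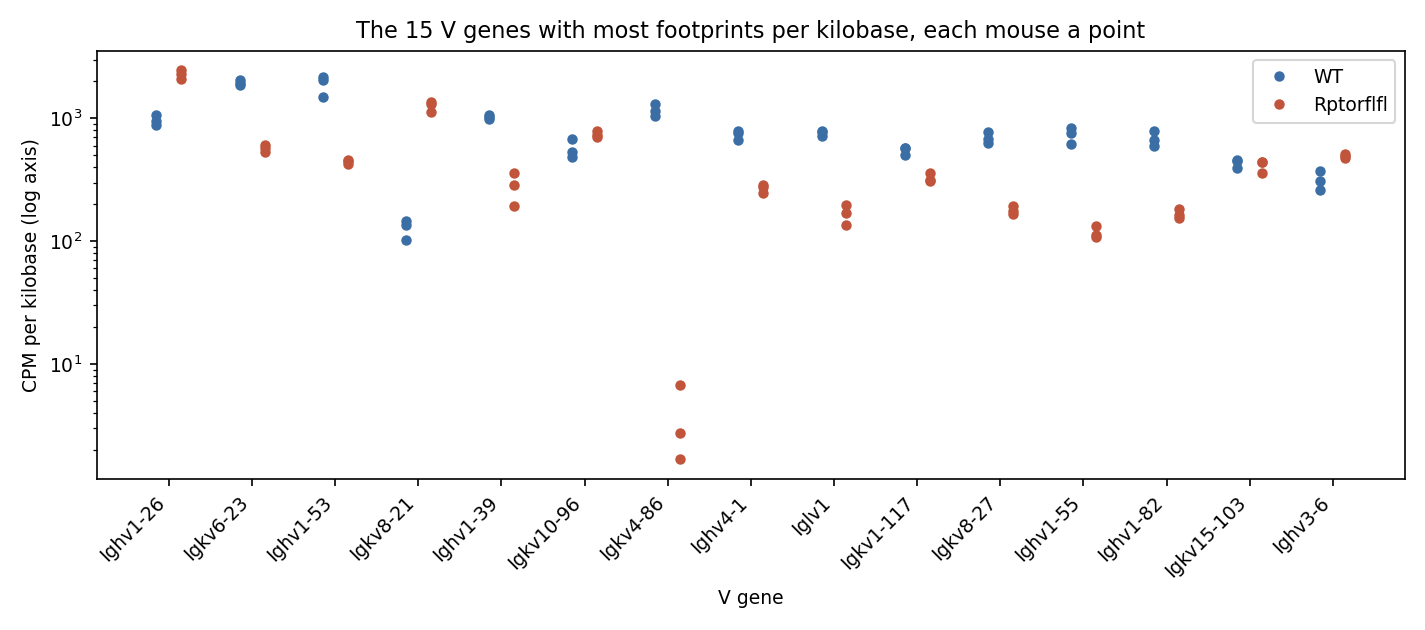
The 15 V genes with most reads per kilobase over the 6 mice, in that order from left to right, as CPM per kilobase on a log axis with a point for each mouse. In 14 of the 15 the genotype difference passed the test, and Igkv15-103 is the exception.

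The most read genes of the other kappa families varied likewise. Igkv2-109 had 15.6, 19.4 and 12.1 CPM in WT and 117, 100.0 and 98.5 CPM in Rptorflfl (log2 2.84 ± 0.16 (SE), adjusted p = 6.7e-09). Igkv12-44 had 65.3, 57.8 and 111 CPM in WT and 116, 147 and 132 CPM in Rptorflfl and passed the test narrowly (log2 0.65 ± 0.17 (SE), adjusted p = 0.023), but not without WT replicate 1, WT replicate 2, Rptorflfl replicate 2 or Rptorflfl replicate 3 (adjusted p = 0.076, 0.12, 0.10 and 0.056). Igkv5-43 had 61.5, 68.8 and 117 CPM in WT and 128, 126 and 103 CPM in Rptorflfl, with WT replicate 3 inside the Rptorflfl range (log2 0.39 ± 0.17 (SE), adjusted p = 0.15). Igkv14-111 had 47.3, 65.3 and 83.9 CPM in WT and 64.96, 60.4 and 56.1 CPM in Rptorflfl (log2 -0.24 ± 0.14 (SE), adjusted p = 0.31) and Igkv3-12 had 22.1, 10.4 and 28.2 CPM in WT and 20.4, 28.8 and 17.9 CPM in Rptorflfl (log2 0.02 ± 0.27 (SE), adjusted p = 0.98). Neither of the last 2 genes separated the genotypes.

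Both lambda members fell. Iglv1 (chr16:19085017-19085500) had 333, 341 and 308 CPM in WT and 72.98, 85.8 and 58.7 CPM in Rptorflfl (log2 -2.19 ± 0.12 (SE), adjusted p = 5.2e-09) and held 92.7 to 96.3% of lambda V reads in the 6 mice. Iglv2 had 26.2, 23.2 and 19.5 CPM in WT and 2.79, 4.29 and 3.73 CPM in Rptorflfl (log2 -2.58 ± 0.23 (SE), adjusted p = 1.5e-06). Each had 60.7% of 28-base words to itself, and the split between the 2 genes did not separate the genotypes while their sum did.

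Summed by family, where the V genes were replaced by 1 value for each family in a fit over 11390 features, 31 of 38 families were tested. Of these 11 were higher in Rptorflfl, 14 lower and 6 did not pass, whereas 13.1% of all features in this fit were called. Of 23 families with at least 2 members, 12 held both a member called higher and a member called lower. Ighv1, Igkv4, Igkv6 and Igkv8 were among the families with most reads, so values for each are given.

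Of heavy V reads, Ighv1 took 69.7, 68.3 and 70.7% in WT and 63.1, 63.2 and 64.6% in Rptorflfl (log2 -0.53 ± 0.06 (SE), adjusted p = 3.7e-05 for its level). Ighv7 took 0.5304, 0.394 and 0.655% in WT and 4.33, 4.404 and 4.52% in Rptorflfl, the largest rise of the tested families (log2 2.62 ± 0.13 (SE), adjusted p = 1.2e-09), and Ighv14 took 2.12, 2.15 and 1.91% in WT and 4.7995, 4.91 and 4.89% in Rptorflfl (log2 0.87 ± 0.09 (SE), adjusted p = 7.1e-06). Both families had no overlap between genotypes. Ighv2 took 3.32, 3.21 and 3.55% in WT and 1.25, 1.57 and 1.51% in Rptorflfl and fell (log2 -1.603 ± 0.10 (SE), adjusted p = 2.4e-08). Ighv3 took 4.41, 5.41 and 3.98% in WT and 8.55, 8.34 and 7.98% in Rptorflfl and rose (log2 0.45 ± 0.10 (SE), adjusted p = 0.0074). Its share was above the WT range in every Rptorflfl mouse, as was that of Ighv8, which took 1.05, 1.57 and 1.77% in WT and 3.39, 3.52 and 3.71% in Rptorflfl (log2 0.803 ± 0.12 (SE), adjusted p = 2.2e-04). Ighv5 took 8.69, 7.94 and 7.88% in WT and 6.102, 6.17 and 5.56% in Rptorflfl and fell (log2 -0.85 ± 0.08 (SE), adjusted p = 1.7e-06). Ighv9 had 2.23, 2.34 and 2.08% in WT and 2.96, 2.61 and 2.19% in Rptorflfl and did not pass (log2 -0.18 ± 0.10 (SE), adjusted p = 0.29). The call of Ighv3, and that of Ighv10 among the small families, was lost without WT replicate 3 (adjusted p = 0.072 and 0.069).

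Among kappa families, Igkv6 took 25.7, 24.7 and 24.96% in WT and 14.1, 13.96 and 14.2% in Rptorflfl of the locus and fell (log2 -0.97 ± 0.07 (SE), adjusted p = 5.3e-08). Igkv4 took 18.8, 20.9 and 21.7% in WT and 15.04, 14.997 and 14.2% in Rptorflfl (log2 -0.62 ± 0.08 (SE), adjusted p = 1.2e-04), although 6 of its 21 members were higher and 6 lower. Igkv8 took 12.2, 12.1 and 10.3% in WT and 15.3, 17.2 and 18.9% in Rptorflfl and rose (log2 0.44 ± 0.08 (SE), adjusted p = 0.0021), with 1 member, Igkv8-21, higher and 5 lower. A family's direction was thus that of its most read gene, which weighs most in a sum, in Igkv8 and in Igkv6. This was not so in Ighv1, which fell (log2 -0.53) while its most read gene Ighv1-26 rose (log2 1.23). Nor was it so in Ighv5, which fell (log2 -0.85) while its most read gene Ighv5-17 did not pass (log2 0.09). Igkv2 took 1.34, 1.22 and 0.834% in WT and 4.47, 4.24 and 4.58% in Rptorflfl (log2 1.94 ± 0.13 (SE), adjusted p = 3.2e-08), and all 3 of its members were higher. Igkv17 took 2.48, 1.44 and 2.08% in WT and 5.405, 4.72 and 4.56% in Rptorflfl (log2 1.196 ± 0.13 (SE), adjusted p = 1.3e-05) and both of its members were higher. Igkv10, Igkv14, Igkv15 and Igkv3 did not pass. The calls of Igkv5, Igkv11 and Igkv16 were lost when single libraries were left out, with adjusted p up to 0.15, 0.10 and 0.073.

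**Figure D5:**
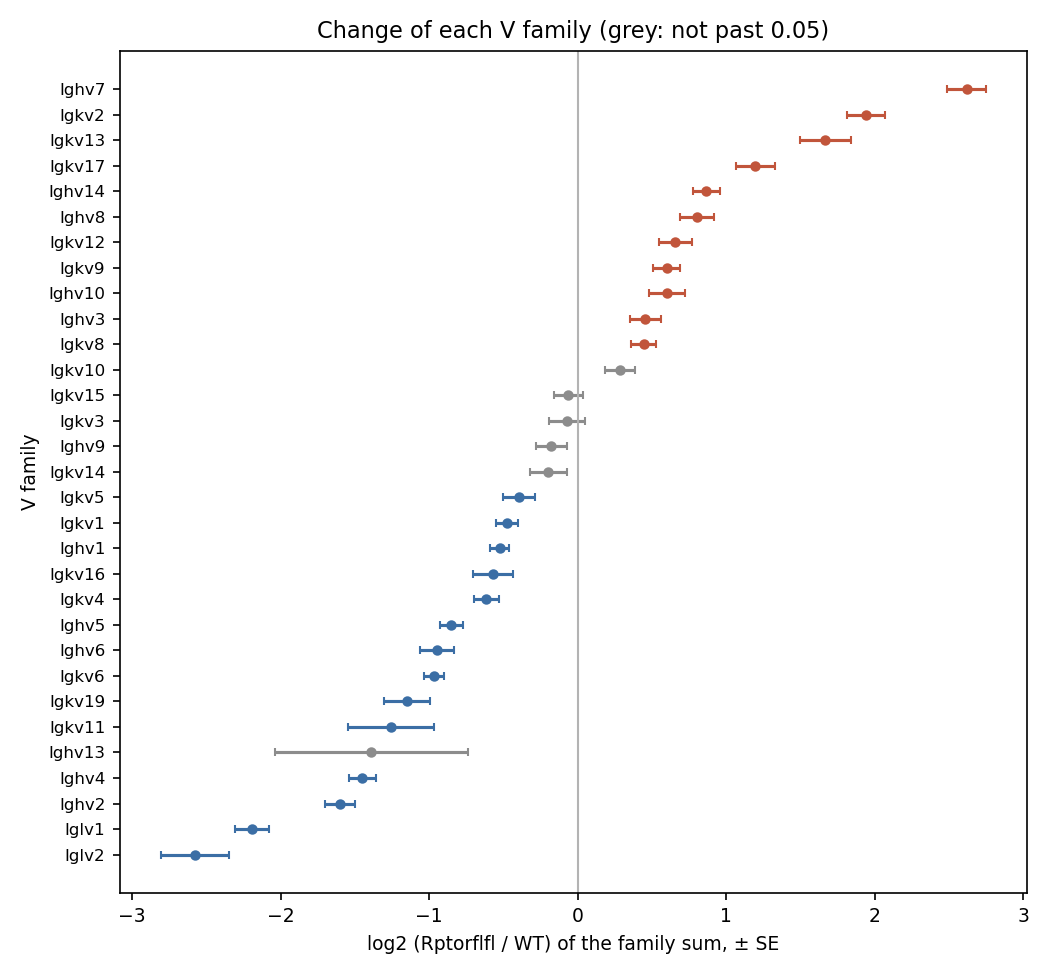
Points give the log2 change of each of the 31 tested V families, Rptorflfl over WT, and bars the SE, with families not past 0.05 in grey. Values run from -2.58 for Iglv2 to 2.62 for Ighv7.

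Concentration of the repertoire differed by locus. The number of genes that together held 50% of heavy V reads was 7, 7 and 8 in WT and 10, 9 and 9 in Rptorflfl, although the leading gene's share was 15.9, 15.4 and 11.6% in WT and 21.5, 22.7 and 23.8% in Rptorflfl. For kappa these numbers were 6, 6 and 7 in WT and 10, 10 and 9 in Rptorflfl, and the leading gene took 19.5, 16.8 and 17.8% in WT and 11.3, 13.1 and 14.7% in Rptorflfl. The effective number of genes, the inverse of the sum of squared shares, gives most weight to the leading genes. For heavy V genes it was 18.5, 19.4 and 22.8 in WT and 15.8, 14.6 and 13.6 in Rptorflfl, opposite to the number holding 50%. For kappa V genes it was 15.1, 16.4 and 16.5 in WT and 25.7, 23.2 and 21.3 in Rptorflfl. The kappa reads were therefore spread over more genes in each Rptorflfl mouse, while the heavy chain leader was more dominant there.

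Position along the loci was taken from the same build. Heavy chain members lay 158 to 2570.3 kb from Ighj1, and the 27 farthest took 43.1, 43.0 and 43.2% of heavy V reads in WT and 28.1, 27.7 and 28.3% in Rptorflfl. The 27 in the middle took 31.2, 30.6 and 32.2% in WT and 42.9, 42.7 and 43.4% in Rptorflfl. Single genes weighed heavily on these shares. In the middle part, Ighv1-26 alone took 7.05, 6.64 and 8.24% of heavy V reads in WT and 21.5, 22.7 and 23.8% in Rptorflfl. In the farthest part, Ighv1-53 alone took 15.9, 15.4 and 11.6% in WT and 4.42, 4.50 and 4.37% in Rptorflfl. A part of position itself in these shares was not tested. Called genes of both directions lay in each part of the locus, with 9 higher and 8 lower among the nearest, 7 and 10 in the middle and 5 and 11 among the farthest. In the kappa locus, members lay 19.0 to 3167 kb from Igkj1, and the 26 nearest took 41.6 to 43.1% of reads in WT and 35.7 to 38.7% in Rptorflfl. The 48 kappa members on the opposite strand from Igkc, which join by inversion, took 71.7, 73.2 and 72.4% of kappa V reads in WT and 62.0, 63.1 and 63.0% in Rptorflfl.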

How the data were processed

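Ribosome footprints of HA-tagged ribosomes from 3 WT and 3 Rptorflfl mice were analysed, and 17 organoid libraries of the series were given beside them without a test. The submitters' processing notes name cutadapt 1.18 and Salmon 1.1.0. The authors removed rRNA reads and deposited an estimated count for each sequence, on mRNA sequences of GENCODE vM21 (mm10). For Ribo-seq they describe a reference with the untranslated regions cut off and duplicate sequences taken out. The V sequences were 29 to 82 bases longer than the annotated transcripts. A deposited table of translation efficiency, with the authors' own ratios, was not used here.

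Counts of all sequences of a gene were added up and then rounded. Genes were tested in R 4.3.3 with edgeR 4.0.16 (filterByExpr, TMM, quasi-likelihood test, Benjamini-Hochberg over all genes, threshold 0.05), on the 6 mouse libraries with genotype as the only term. The family fit replaced V genes by family sums. The fits were checked on simulated counts. Shares were computed per mouse with Python 3.11.15, with no p.

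Named genes were the 15 with most reads per kilobase, the most read of each family of at least 3 members, the 10 with the smallest adjusted p, the 3 with the largest share of a locus, and those beside the threshold of 60 reads. The members and lists were chosen with earlier results of these data known. Alternatives were DESeq2 1.42.0, library sizes without immunoglobulin genes, no count filter, an effective length offset, the largest sequence per gene, a replicate block and leaving out each mouse. Replicate numbers were not treated as pairs in the main analysis. Depth limits genes with few reads, and counting error alone does not cover how Salmon divided shared reads.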

Additional observations from a re-analysis of the deposited data

How the results depend on the processing

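The count of V genes called was 105 in the main analysis and 86 with DESeq2, 105 with library sizes without immunoglobulin genes, 118 with no count filter, 98 with the effective length offset and 104 with the largest sequence per gene. It was 85 to 108 when single mice were left out. The count of families called was 25, and ranged from 22 to 28 over the alternatives run. No gene called in both the main analysis and an alternative changed direction. With the replicate number as a block, 102 V genes and 26 families were called. The deviations of same-numbered mice correlated at -0.006, 0.034 and 0.010 over 11515 genes, so these values showed no pairing by number. Depth rose with the replicate number in both genotypes, and whether same-numbered mice shared a batch was not tested. Igkv10 passed under the block, with DESeq2, with no count filter and without WT replicate 2 (adjusted p = 0.043, 0.048, 0.015 and 0.0090), and Ighv13 passed with no count filter and without WT replicate 3 (adjusted p = 0.013 and 0.023) but turned direction without WT replicate 2 (log2 0.36, adjusted p = 0.77), and Igkv16 did not pass with DESeq2 (adjusted p = 0.051). Of the named genes, Igkv12-44 did not pass with DESeq2 (adjusted p = 0.14), and Ighv9-3 and Igkv5-43 passed with no count filter. Igkv5-43 also passed without WT replicate 3 (log2 0.83, adjusted p = 0.0028), and Ighv9-3 without WT replicate 2 and without Rptorflfl replicate 3 (adjusted p = 0.020 and 0.034). Named genes that did not pass changed sign when single mice were left out: Igkv3-12 ranged from -0.28 (without WT replicate 2) to 0.66, with -0.17 without Rptorflfl replicate 2, Igkv14-111 from -0.34 to 0.029 (without WT replicate 3), and Igkv15-103 from -0.14 to 0.038 (without Rptorflfl replicate 3) in log2 change. The locus shares moved by less than 1 SD under reads per effective length and all V genes. V genes with few reads in a library are limited by depth, and 20 members had at most 3 reads in WT replicate 1.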
